A study of Mus musculus with 2 samples.

Results

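The 10 genes described here encode adhesive glycoproteins of the extracellular matrix. They are fibronectin (*Fn1*), 3 tenascins (*Tnc*, *Tnn* and *Tnxb*), 4 thrombospondins (*Thbs1* to *Thbs4*), periostin (*Postn*) and transforming growth factor beta induced protein (*Tgfbi*). They were taken by gene symbol from a count table of 24421 genes, and each symbol matched a single entry. The table held 1 RNA-Seq library of primary chondrocytes from the rib cartilage of newborn mice and 1 library of primary dermal fibroblasts from their dorsal skin. Both preparations were released with collagenase, the chondrocytes were used at an early passage, and the sources used here give no strain, genotype or number of animals. In the study the dermal fibroblasts were the reference against which genes with higher expression in chondrocytes were sought.

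Fibronectin is secreted as a dimer and is pulled into fibrils by integrins on the cell surface, and many other matrix proteins are laid down on that scaffold. Tenascins, thrombospondins and periostin are called matricellular proteins, because they modulate how cells hold on to the matrix more than they bear load. In cartilage the matrix is built mainly of type II collagen and aggrecan, whereas in dermis it is built of type I and type III collagen, and periostin and tenascin C are known from dermis, tendon, perichondrium and healing wounds.

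With 1 library per cell type there was no replicate error, so no test was made and no p-value is given. The fold is the scaled chondrocyte count over the scaled dermal fibroblast count, after scaling with edgeR's trimmed mean of M-values (TMM). Each fold is given with its 95% Clopper-Pearson interval. The interval allows for the counting of reads alone and says nothing of the variation between animals or cultures. The libraries held 18788599 counts (chondrocytes) and 17563724 counts (dermal fibroblasts). In bulk RNA, fewer cells of a type and less RNA per cell cannot be told apart. Each of the 10 chondrocyte markers tried passed 2-fold toward the chondrocyte library, and 8 of 10 dermal fibroblast markers passed it toward the fibroblast library, as labelled. The other 2 fibroblast markers were within 2-fold, and of these *Lum* lay toward chondrocytes (3191 and 2881 counts, 1.14-fold, interval 1.08 to 1.20). Transcripts of other cell types were present, and they are given after the members.

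Of the 10 genes, 3 had a fold over 2 toward chondrocytes (*Fn1*, *Thbs3* and *Thbs4*), 4 had one toward dermal fibroblasts (*Tnc*, *Tnxb*, *Thbs2* and *Postn*), and 3 lay within 2-fold (*Tnn*, *Thbs1* and *Tgfbi*). Of the 14291 genes with at least 10 counts in either library, 11.8% passed 2-fold toward chondrocytes and 16.2% passed it toward dermal fibroblasts. Among the 4345 genes with at least 1000 counts in either library, a level that 9 of the 10 genes reached, the shares were 8.42% and 13.5%. The median log2 fold of the 10 genes was 0.06, and that of all genes with at least 10 counts was -0.0035. The median of the 10 genes lay between *Tnn* (-0.36) and *Thbs1* (0.48), while other members lay far from equality in both directions. For each of the 7 genes past 2-fold the whole counting interval lay beyond 2-fold, as it did for 7.21% of the genes toward chondrocytes and 10.8% toward dermal fibroblasts. A fold over 4 was found for 2 members toward chondrocytes, against 4.99% of all genes, and for 4 members toward dermal fibroblasts, against 6.5%.

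**Figure D1:**
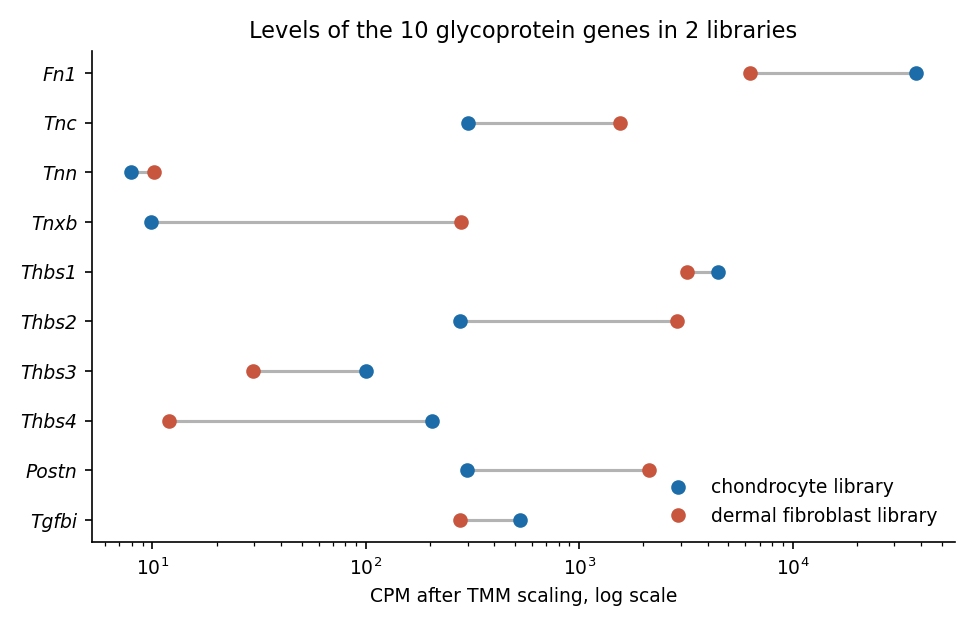
Levels of the 10 genes in CPM after TMM scaling, on a log axis, with 1 point for the chondrocyte library and 1 for the dermal fibroblast library. The points of *Tnn* and *Thbs1* lie close together, while those of *Tnxb* (9.82 and 279.6) and *Thbs4* (204.6 and 11.9) lie far apart in opposite directions.

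**Figure D2:**
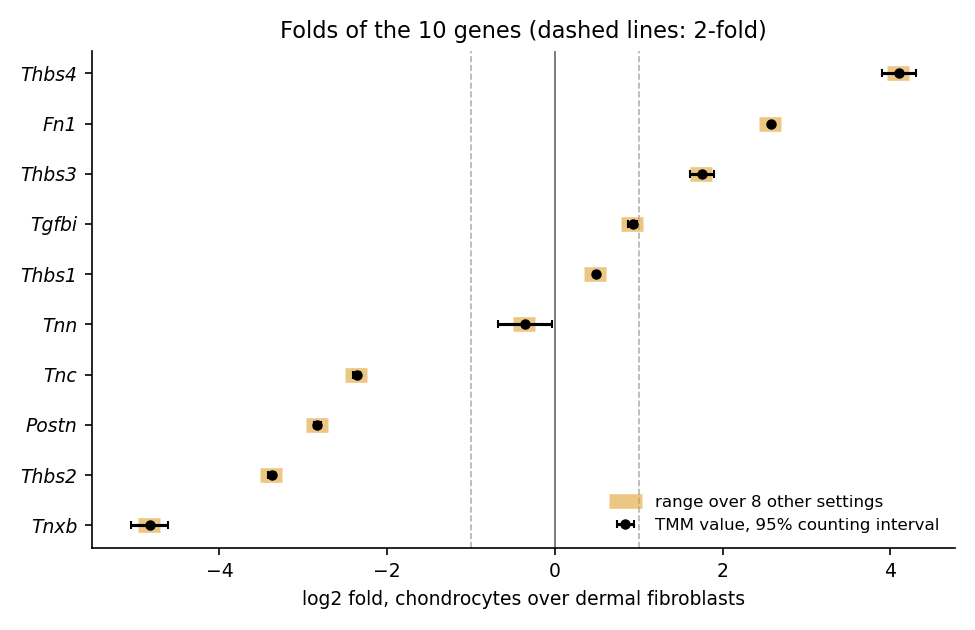
The log2 fold of chondrocytes over dermal fibroblasts for each gene, ordered by size. Points are the TMM values with 95% counting intervals, the shaded bars span 8 other settings, and the dashed lines mark 2-fold. Only the bar of *Tgfbi* crosses a dashed line.

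*Fn1* (chromosome 1 of GRCm38, 71585473 to 71653280) dominated the set in chondrocytes. It was counted 674829 times in the chondrocyte library against 116258 times in the dermal fibroblast library, and the chondrocyte value was 5.96-fold higher (interval 5.92 to 5.999). *Fn1* was the second most abundant gene by counts in the chondrocyte library and ranked 5 in the dermal fibroblast library, so its transcript was abundant in both cell types and the difference was one of degree. It took 3.59% of all chondrocyte counts and 0.662% of all dermal fibroblast counts. Among the 4345 genes with at least 1000 counts, 111 had a larger fold toward chondrocytes. Cells splice *Fn1* into forms with and without its extra domains, and counts per gene do not separate these forms.

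The tenascins, large multi-armed glycoproteins with fibronectin type III repeats, were higher in dermal fibroblasts as a sum. They summed to 5712 counts in chondrocytes against 33885 in dermal fibroblasts, and the dermal fibroblast sum was 5.78-fold higher (interval 5.62 to 5.94). The members differed from each other. *Tnxb* (chromosome 17, 34660453 to 34719815) encodes tenascin X, which binds collagen fibrils in skin and tendon and whose loss in people causes a form of Ehlers-Danlos syndrome. It had 176 counts in chondrocytes against 5148 in dermal fibroblasts, a 28.5-fold difference toward dermal fibroblasts (interval 24.5 to 33.3) and the furthest of the 10 genes from equality. Among genes with at least 1000 counts, 18 had a larger fold in that direction.

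*Tnc* (chromosome 4, 63959785 to 64047015) encodes tenascin C, a hexameric protein of developing and wounded connective tissue. It had 5394 counts in chondrocytes against 28550 in dermal fibroblasts and lay 5.15-fold higher (interval 5.01 to 5.31) in dermal fibroblasts. *Tnn* (chromosome 1, 160085029 to 160153692) encodes tenascin N, also called tenascin W, which is known from developing bone and periosteum. It was the least counted tenascin, with 142 counts in chondrocytes against 187 in dermal fibroblasts. The fold toward dermal fibroblasts was 1.28, with an interval from 1.03 to 1.61, so it was within 2-fold in either direction at this depth.

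The thrombospondins fell on both sides. Thrombospondins 1 and 2 form trimers and can bind the receptors CD36 and CD47, and thrombospondins 3 and 4 form pentamers like cartilage oligomeric matrix protein (*Comp*), the fifth member of the family. The pentameric members were higher in chondrocytes, the trimeric *Thbs2* was higher in dermal fibroblasts, and *Thbs1* was within 2-fold. Summed over the 4 genes, the counts were 90592 and 112597, a 1.21-fold difference toward dermal fibroblasts (interval 1.20 to 1.22), so the family sum hid the opposite differences of its members.

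*Thbs4* (chromosome 13, 92751586 to 92794818), a thrombospondin known from tendon, muscle and heart, had 3668 counts in chondrocytes against 220 in dermal fibroblasts. It was 17.1-fold higher in chondrocytes (interval 14.9 to 19.7), the largest fold in that direction among the 10 genes. *Thbs3* (chromosome 3, 89215180 to 89226841), known from developing bone and cartilage, had 1793 counts in chondrocytes against 547 in dermal fibroblasts and was 3.37-fold higher in chondrocytes (interval 3.06 to 3.71). Both genes had fewer than 1000 counts in dermal fibroblasts. *Comp*, which is not among the 10 genes, had 25116 counts in chondrocytes against 4 in dermal fibroblasts, so the 3 pentameric thrombospondins were all higher in chondrocytes, with *Comp* at 6449-fold (interval 2518 to 23671).

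*Thbs2* (chromosome 17, 14665500 to 14694262), which is known to limit vessel growth and to shape collagen fibrils in skin, had 4967 counts in chondrocytes against 52992 in dermal fibroblasts. It was 10.4-fold higher (interval 10.1 to 10.7) in dermal fibroblasts. *Thbs1* (chromosome 2, 118111876 to 118127133), which can release latent TGF-beta, had 80164 counts in chondrocytes against 58838 in dermal fibroblasts, a 1.40-fold difference toward chondrocytes (interval 1.38 to 1.41). It ranked 11 by counts in chondrocytes, ranked 12 in dermal fibroblasts and was thus a major transcript of each library. A ratio taken within a library does not depend on the scaling between libraries. There were 16.1 counts of *Thbs1* for each count of *Thbs2* in chondrocytes (interval 15.7 to 16.6) and 1.11 in dermal fibroblasts (interval 1.10 to 1.12), so this ratio differed 14.5-fold between the cell types (interval 14.1 to 15.0).

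The pentameric pair also changed order. *Thbs3* had 0.489 counts for each count of *Thbs4* in chondrocytes (interval 0.462 to 0.517) and 2.49 in dermal fibroblasts (interval 2.12 to 2.92). The ratio was 5.09-fold higher (interval 4.31 to 6.01) in dermal fibroblasts. Adjusted for transcript length, *Thbs4* was the more abundant of the pair in chondrocytes and *Thbs3* was the more abundant in dermal fibroblasts, with per-length ratios of *Thbs3* to *Thbs4* of 0.49 and 2.49.

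Periostin and TGFBI are the related members of the fasciclin domain family, and both are known as products of TGF-beta stimulated cells. In these libraries they differed in opposite directions. *Postn* (chromosome 3, 54359267 to 54391041), which binds type I collagen and assists collagen cross-linking in dermis and periosteum, had 5333 counts in chondrocytes against 39067 in dermal fibroblasts. It was 7.13-fold higher (interval 6.93 to 7.34) in dermal fibroblasts. *Tgfbi* (chromosome 13, 56609586 to 56639359) had 9419 counts in chondrocytes against 5090 in dermal fibroblasts, a 1.90-fold difference toward chondrocytes (interval 1.84 to 1.97). When *Actb* was used for scaling, the fold of *Tgfbi* was 2.07, which is past the 2-fold threshold. There were 0.566 counts of *Postn* for each count of *Tgfbi* in chondrocytes and 7.68 in dermal fibroblasts, so that the ratio was 13.6-fold higher (interval 12.97 to 14.2) in dermal fibroblasts.

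**Figure D3:**
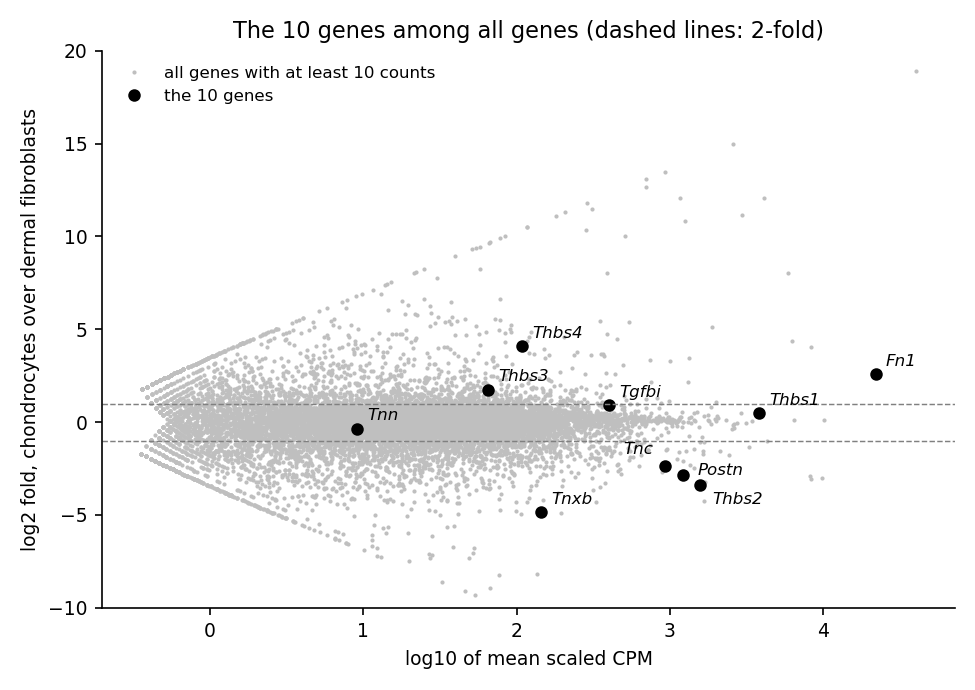
The 10 genes (black) among the 14291 genes with at least 10 counts (grey). The x axis is the log10 of the mean scaled CPM, the y axis is the log2 fold of chondrocytes over dermal fibroblasts, and dashed lines mark 2-fold. *Fn1* lies at the right edge above the 2-fold line, and *Tnc*, *Postn* and *Thbs2* lie together below it at a high level.

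The make-up of the set differed between the cell types. The 10 genes took 4.18% of the chondrocyte counts (interval 4.17 to 4.19) and 1.75% of the dermal fibroblast counts (interval 1.74 to 1.75). *Fn1* made up 85.9% of the summed counts of the set in chondrocytes (interval 85.8 to 85.9) and 37.9% in dermal fibroblasts (interval 37.7 to 38.1). Without *Fn1* the direction of the sum turned, because the other 9 genes summed to 111056 counts in chondrocytes against 190639 in dermal fibroblasts, a 1.67-fold difference toward dermal fibroblasts (interval 1.66 to 1.68). There were 125 counts of *Fn1* for each count of *Tnc* in chondrocytes (interval 122 to 129) and 4.07 in dermal fibroblasts (interval 4.02 to 4.13).

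Levels of different genes were compared in RPKM, the CPM of a library divided by the kilobases of the longest annotated protein-coding transcript. On this scale *Fn1* was at 4321 RPKM in chondrocytes, followed by *Thbs1* at 729.6, *Tgfbi* at 169 and *Postn* at 88.6. The next were *Thbs4* at 61.0, *Thbs2* at 44.6, *Tnc* at 40.4 and *Thbs3* at 29.9, and the lowest were *Tnn* at 1.30 and *Tnxb* at 0.759. In dermal fibroblasts the levels were more even. *Fn1* was at 796, *Postn* at 694.7, *Thbs1* at 573 and *Thbs2* at 509 RPKM. They were followed by *Tnc* at 229, *Tgfbi* at 97.7 and *Tnxb* at 23.7, and *Thbs3*, *Thbs4* and *Tnn* lay lowest at 9.76, 3.92 and 1.83. Of the summed per-length levels *Fn1* held 78.8% in chondrocytes and 27.1% in dermal fibroblasts, and *Postn* held 1.62% and 23.6%. The place of *Postn* depended on the length used, because its longest transcript is 3202 bases and its merged exons span 7838 bases in the annotation. With merged exons it was at 36.2 in chondrocytes, where it fell to place 7 of 10, and at 283.8 in dermal fibroblasts, where it fell to place 4.

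**Figure D4:**
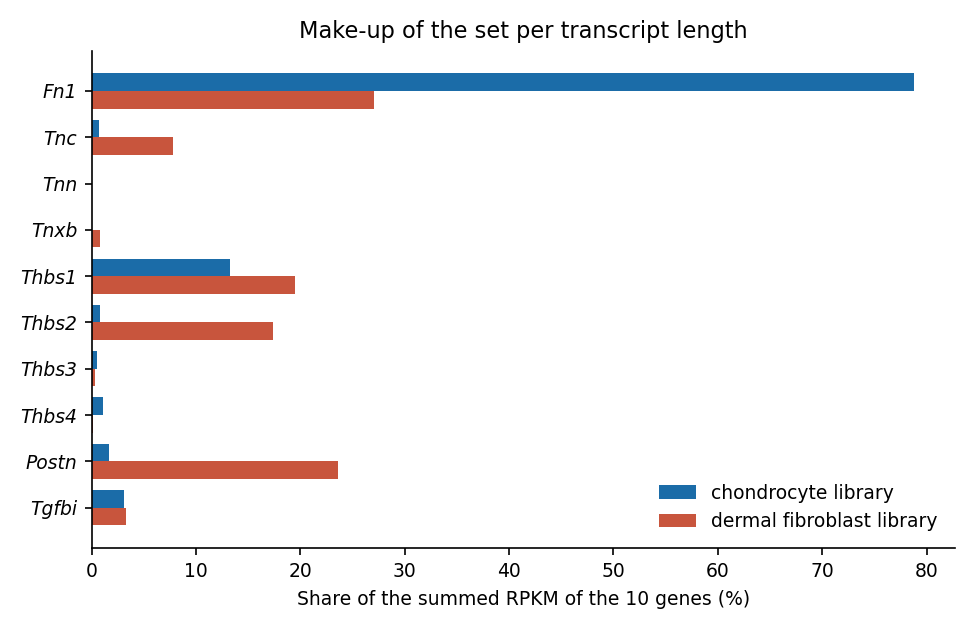
Share of each gene in the summed RPKM (longest transcript) of the 10 genes, in percent, with 1 bar for each library. *Fn1* holds 78.8% in chondrocytes, while in dermal fibroblasts *Fn1*, *Postn*, *Thbs1* and *Thbs2* hold 27.1%, 23.6%, 19.5% and 17.3%.

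RefSeq promoter windows of GRCm38.p6 were at hand for 8 of the 10 genes, and *Fn1* and *Thbs1* had none. The 250 bases before the transcript start are shown for *Thbs4*, the gene with the largest fold toward chondrocytes, and for *Thbs2*, *Postn* and *Tnc*, the most highly expressed genes with folds toward dermal fibroblasts. For *Postn* and *Tnc*, which have 2 windows each, the window further into the gene is shown. Capitals mark matches on either strand to any of 5 short motifs. The TATA element was searched as TATAAA. The GC box that is bound by SP1 was searched as GGGCGG, and the half-site of the SMAD proteins of TGF-beta signaling was searched as CAGAC. A core element of the SOX family was searched as ACAAAG, and the AP-1 element was searched as TGANTCA. No match overlapped a match to another motif in the windows shown, and no data on binding were used. Sequences are written 5′ to 3′ on the strand of the gene.
Thbs4 (minus strand, chr13:92794819-92795068): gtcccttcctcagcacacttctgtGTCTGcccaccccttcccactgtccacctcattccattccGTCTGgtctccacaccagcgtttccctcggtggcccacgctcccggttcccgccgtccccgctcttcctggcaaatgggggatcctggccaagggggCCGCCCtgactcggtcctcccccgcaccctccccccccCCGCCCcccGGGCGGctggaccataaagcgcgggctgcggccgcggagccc
Thbs2 (minus strand, chr17:14694263-14694512): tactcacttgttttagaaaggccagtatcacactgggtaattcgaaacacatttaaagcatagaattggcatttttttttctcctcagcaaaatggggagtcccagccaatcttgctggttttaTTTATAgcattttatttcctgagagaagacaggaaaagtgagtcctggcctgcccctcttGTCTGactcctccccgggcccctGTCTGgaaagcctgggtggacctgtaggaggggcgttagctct
Postn (plus strand, chr3:54360857-54361106): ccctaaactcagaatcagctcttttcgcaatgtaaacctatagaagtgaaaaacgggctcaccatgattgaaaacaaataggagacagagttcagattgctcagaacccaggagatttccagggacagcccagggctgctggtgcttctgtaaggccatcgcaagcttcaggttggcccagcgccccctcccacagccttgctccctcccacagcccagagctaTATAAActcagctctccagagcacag
Tnc (minus strand, chr4:64046937-64047186): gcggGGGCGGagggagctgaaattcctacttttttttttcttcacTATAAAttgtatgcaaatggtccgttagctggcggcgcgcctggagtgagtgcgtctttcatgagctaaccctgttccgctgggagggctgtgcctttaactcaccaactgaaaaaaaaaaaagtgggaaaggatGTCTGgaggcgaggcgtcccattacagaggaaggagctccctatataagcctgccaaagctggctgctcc

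TATAAA was found in windows of *Tnc*, *Thbs2* and *Postn* and in 12.4% of all 32851 promoter windows of the same length. Its position from the transcript start was -26 in *Postn* and -126, on the opposite strand, in *Thbs2*. In *Tnc* it lay at -205 in the window shown and at -126 in the other window. The window of *Tnc* that is shown also holds tatataag near its end, closer to the transcript start. That stretch differs from TATAAA in its last base, so the search did not mark it. TATAAA was not among the letters of the windows of *Thbs3*, *Thbs4*, *Tgfbi*, *Tnn* and *Tnxb*. GGGCGG was found in *Thbs3*, *Thbs4*, *Tgfbi* and *Tnc*, with 3 matches in *Thbs4*, and in 32.7% of all windows. CAGAC was found in *Tnc*, *Tnxb*, *Thbs2*, *Thbs4*, *Postn* and *Tgfbi* and in 42.2% of all windows. The match in *Postn* lay only in its window that is not shown. *Postn* and *Tnc* were counted when either of their windows had a match, while the shares are per single window. ACAAAG was found in *Thbs3* and *Tgfbi* and in 16.5% of all windows, and TGANTCA was found in *Tnxb* alone among the 8 genes and in 6.75% of all windows. The GC content of the *Thbs4* window was 70.8%, with 19 CpG dinucleotides, and that of the *Thbs2* window was 46.8%, with 3 CpG dinucleotides. The median over all windows was 52.4%, with 6 CpG dinucleotides.

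Of 14 genes for receptors of these proteins with at least 10 counts, 2 passed 2-fold toward chondrocytes and 5 toward dermal fibroblasts, with a median log2 fold of -0.59. Beside this list and the later ones, the shares over all genes with at least 10 counts were 11.8% toward chondrocytes and 16.2% toward dermal fibroblasts. *Itgb1*, the beta 1 integrin chain that pairs with alpha 5 to bind fibronectin, had 11953 and 19864 counts in chondrocytes and dermal fibroblasts, and *Itga5* had 3310 and 5019 counts. Both were within 2-fold, at 1.62-fold and 1.48-fold toward dermal fibroblasts. *Fn1* passed 2-fold toward chondrocytes, while these chains of its main integrin lay toward dermal fibroblasts within 2-fold. Of the beta chains that pair with alpha V, *Itgb5* had 3422 and 5041 counts, and *Itgb3* was 5.04-fold higher in dermal fibroblasts (135 against 699 counts, interval 4.19 to 6.11). *Sdc4*, a syndecan that acts with integrins on fibronectin, was 6.48-fold higher in chondrocytes (6003 against 951 counts, interval 6.05 to 6.95).

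Other adhesive and matricellular glycoproteins lay in both directions. Of 20 with at least 10 counts, 8 passed 2-fold toward chondrocytes and 8 toward dermal fibroblasts, with a median log2 fold of 0.21. *Sparc*, a collagen-binding matricellular protein, was abundant in both libraries at 120019 and 115617 counts (1.07-fold, interval 1.06 to 1.07). *Ctgf*, which encodes connective tissue growth factor, was 10.9-fold higher in chondrocytes (interval 10.5 to 11.2), and *Fbln2*, which encodes fibulin 2, was 19.2-fold higher in dermal fibroblasts (2959 against 58499 counts, interval 18.6 to 19.98).

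Most of the 12 genes for fibril assembly and for partners of periostin were higher in dermal fibroblasts. Of these genes, 8 (7 with *Actb* as the scaling) were over 2-fold higher there and 1 was over 2-fold higher in chondrocytes, with a median log2 fold of -1.40. *Col1a1* and *Col3a1*, chains of the dermal fibrillar collagens, were 8.02-fold and 8.29-fold higher in dermal fibroblasts, and *Col6a3*, a chain of type VI collagen, was 2.52-fold higher. *Tgm2*, which encodes a transglutaminase that cross-links fibronectin, was 2.51-fold higher in chondrocytes (2719 against 1111 counts, interval 2.34 to 2.70). *Loxl2* and *Col14a1* also lay toward chondrocytes, within 2-fold, at 1.30-fold (interval 1.26 to 1.34) and 1.20-fold (interval 1.14 to 1.28).

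**Figure D5:**
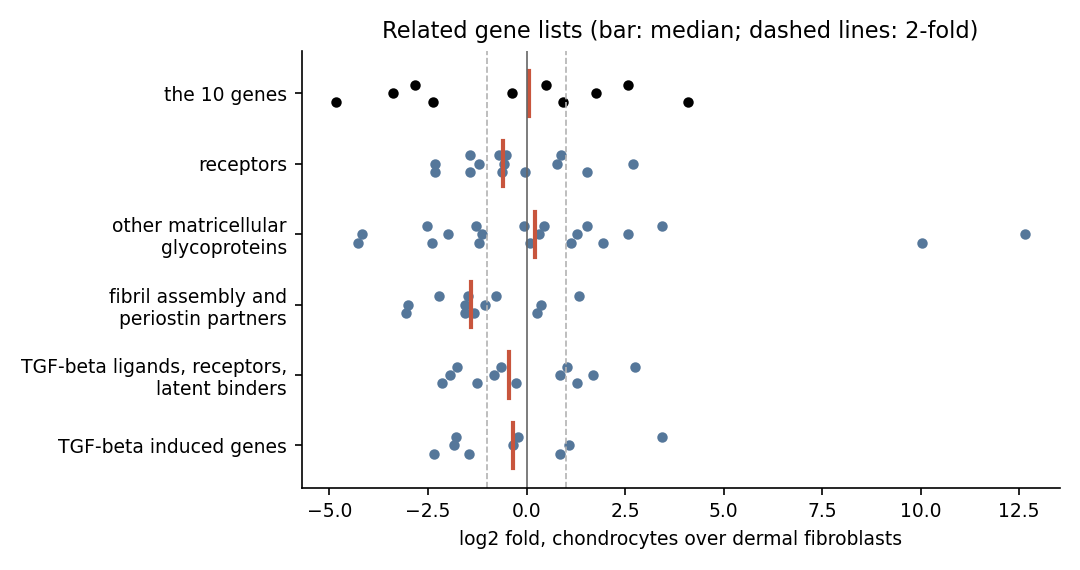
The log2 fold of chondrocytes over dermal fibroblasts for the 10 genes (black) and the genes of 5 related lists (blue) with at least 10 counts. Bars mark the medians and dashed lines mark 2-fold. The medians were 0.06 for the 10 genes and -1.40 for fibril assembly and periostin partners.

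The TGF-beta pathway, whose activity is known to raise *Fn1*, *Tnc*, *Postn* and *Tgfbi* in many cells, was split between the cell types. Of 12 ligand, receptor and latent binder genes, 4 were over 2-fold higher in each direction, with a median log2 fold of -0.46. The ligand *Tgfb2* was 6.75-fold higher in chondrocytes (1426 against 217 counts, interval 5.85 to 7.82), while *Tgfbr2* and *Tgfbr3*, which encode the type II and type III receptors, were 2.40-fold and 3.84-fold higher in dermal fibroblasts. The ligand *Tgfb1* was 3.39-fold higher in dermal fibroblasts. *Lrrc32*, which encodes a protein that holds latent TGF-beta on the cell surface, was 4.39-fold higher (interval 4.02 to 4.80) in dermal fibroblasts. The latent binders *Ltbp1*, *Ltbp3* and *Ltbp4* were 2.45-fold, 3.24-fold and 2.04-fold higher in chondrocytes, and *Ltbp2* was within 2-fold at 1.80-fold toward chondrocytes. With total counts as the scaling, *Ltbp4* was under 2-fold. Of 9 genes known to be induced by TGF-beta, 4 were over 2-fold higher in dermal fibroblasts and 2 in chondrocytes, with a median log2 fold of -0.35. *Acta2*, which encodes smooth muscle actin, was 2.77-fold higher in dermal fibroblasts, and *Pmepa1*, an inhibitor of TGF-beta signaling, was 5.07-fold higher there (845 against 4404 counts, interval 4.71 to 5.47). *Ctgf*, which is also on this list, was 10.9-fold higher in chondrocytes (43816 against 4141 counts, interval 10.5 to 11.2). Of the 5 related lists, the counts moved by at most 1 gene in either direction under the other scalings.

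Markers of further cell types were read beside the members, because tendon, muscle, vessel and epidermis also express some of them. The skeletal muscle list summed to 31889 counts in chondrocytes against 23482 in dermal fibroblasts. Of its 10 genes, 6 (5 with total counts as the scaling) passed 2-fold toward chondrocytes, the direction of *Thbs4*. The other 4 were within 2-fold. They included the most abundant of the list, *Myh3* (7784 and 6497 counts), *Actc1* (7288 and 7970 counts) and *Acta1* (6259 and 4705 counts). Of the 6 tendon and perichondrium markers, 3 were over 2-fold higher in chondrocytes, *Scx* at 160 and 58 counts, *Mkx* at 52 and 24 counts and *Fmod* at 12306 and 1051 counts. *Kera*, at 0 and 13 counts, passed 2-fold toward dermal fibroblasts, and *Tnmd*, at 128 and 193 counts, was within 2-fold. The endothelial and pericyte list summed to 11094 and 3714 counts, of which *Cspg4* had 10824 and 2976, and *Cdh5*, *Kdr* and *Tek* were over 2-fold higher in the fibroblast library. The macrophage list summed to 1836 and 3380 counts, and 2 of its 5 genes passed 2-fold toward dermal fibroblasts. The keratinocyte list summed to 161 and 5864 counts, with *Krt6a* at 0 counts in chondrocytes, and 5 of its 7 genes passed 2-fold toward dermal fibroblasts, the direction of *Tnc*, *Tnxb*, *Thbs2* and *Postn*. The osteoblast list, set beside *Thbs3*, *Tnn* and *Postn*, summed to 11935 and 4378 counts, and 4 of 5 genes were over 2-fold higher in chondrocytes. Of these sums *Spp1*, which is also on the list of other matricellular glycoproteins, had 9639 and 3413 counts. The part of these cells in the values of the members was not tested.

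Some annotated genes share positions with the members in RefSeq. A long noncoding RNA gene (*8030451A03Rik*) shares 62285 bp with the span of *Tnc*, a second (*Gm31095*) shares 1410 bp with *Postn*, and another (*LOC115489723*) shares 1308 bp with *Thbs3*. The pseudogene *Cyp21a2-ps* shares 385 bp with *Tnxb*, and the small RNA gene *Gm24389* lies within *Tnxb*. No count was matched to any of these 5 names. The sources used here do not state whether reads were counted by strand, so reads of such a neighbour could be counted with the member. No annotated gene shares positions with *Fn1*, *Tnn*, *Thbs1*, *Thbs2*, *Thbs4* or *Tgfbi* in that table.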

How the data were processed

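RNA-Seq of 1 library of primary chondrocytes and 1 library of primary dermal fibroblasts was used. The authors prepared stranded mRNA libraries, sequenced single-end reads and mapped them to mm10 with TopHat2 2.0.13, Bowtie2 2.2.3 and SAMtools 0.1.19 (base calling with CASAVA 1.8.2), and they deposited raw read counts per gene symbol. The counting program, annotation and strand setting are not given in the sources used here. The table held 24421 genes, 6703 of them at 0 in both libraries, and in 27 the symbol had been turned into a date.

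Counts were scaled with TMM in edgeR 4.0.16 (R 4.3.3). For folds, 3 was the lowest count used. Intervals are 95% Clopper-Pearson intervals of the count ratio, and intervals of a ratio of ratios are normal approximations on the log scale. No molecular identifiers were used, so intervals allow for the counting of reads alone. Alternatives were total counts, DESeq2 1.42.0 size factors, the upper quartile, totals that left out each library's 10 leading genes, *Actb*, a lowest count of 1 or 10, a pseudocount of 1 instead, a fold over 4, an interval wholly beyond 2-fold, and other filters on low counts. The functions were tested on simulated counts. Calculations used scipy 1.17.1, numpy 2.4.6 and pandas 2.3.3 in Python 3.11.15, with matplotlib 3.10.9 for plots.

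Positions and promoter windows are from RefSeq on GRCm38.p6, the assembly of mm10, and lengths are from GENCODE vM1 on NCBIM37. From that older build lengths were taken and no position. The 10 genes and the related lists were chosen with earlier results of these data known. Of each list, the 3 most abundant genes and the gene furthest from equality in each direction among those with at least 100 counts are the ones the rule names, and for marker lists mostly sums and counts are given. *Scx*, *Mkx*, *Kera*, *Loxl2*, *Col14a1*, *Tgfb1*, *Ltbp1* and *Ltbp3*, which the rule does not name, were named after their values were seen. The same holds for *Ltbp4*, *Cyr61*, *Smad7*, *Myog*, *Fbn1* and *Itgb6*, which crossed 2-fold under another scaling. No gene was named for likeness of pattern, since 2 libraries give 1 difference per gene. Tools behind the authors' false discovery rate are not given in the sources used here, and no such rate was computed. A gene of the list of TGF-beta induced genes is not reported here and was left out of its counts.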

Additional observations from a re-analysis of the deposited data

How the results depend on the processing

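No paired analysis was possible because the groups held 1 library each, and none could be left out. Relative to TMM, the other scalings moved all log2 folds by -0.14 (total counts) to 0.12 (*Actb*). Each of the 10 genes kept its direction under the 8 alternatives, and 9 kept their side of the 2-fold threshold. The exception was *Tgfbi*, at 1.73 with total counts and 2.07 with *Actb*. The fold of *Thbs4* ranged from 15.6 to 18.6 and that of *Fn1* from 5.43 to 6.49, and toward dermal fibroblasts *Tnxb* ranged from 26.2 to 31.3. Of 80 values, 21 fell outside the TMM value's counting interval, which is narrow at these counts. Members over 2-fold higher in chondrocytes numbered 3 (4 with *Actb*, 2 with a fold over 4), and those higher in dermal fibroblasts numbered 4 throughout. Among all genes with at least 10 counts, 1684 were over 2-fold higher in chondrocytes and 2319 in dermal fibroblasts. With at least 1000 counts there were 366 and 588, because fewer genes were counted. Near 2-fold, *Ltbp4*, *Cyr61*, *Smad7* and *Myog* were under it with total counts, *Fbn1* was under it with *Actb*, and *Itgb6* was over it with *Actb*.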
